A study of Mus musculus with 12 samples.

Results

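Processed pseudogenes arise when a messenger RNA is copied back into DNA and inserted elsewhere in the genome, so they resemble the spliced message of their parent gene, lack its introns and usually lack its promoter. Among 23150 genes measured in the mouse ovary, 10 were followed here: 4 parent genes, Rpl29, Rpl3, Hspa8 and Gnpda1, and 6 pseudogenes, Gm13841 and Gm8210 (copies of Rpl29), Rpl3-ps1 and Rpl3-ps2 (copies of Rpl3), Gm15459 (a copy of Hspa8) and Gm8615 (a copy of Gnpda1). They were taken by gene name, and the names had been picked because their levels in granulosa cells (GCs) differed between treatments, so the GC values describe how the genes were chosen and are given without a test. The file held 1575 processed pseudogenes in all, transcribed ones included.

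Bulk RNA-seq had been performed on GCs and on ovarian stromal tissue (OST), the ovarian tissue left after GCs were released by needle puncture, collected 8 h post-hCG (human chorionic gonadotropin, given in place of the natural surge of luteinizing hormone). All animals were wild-type (WT) immature C57BL/6J females primed with pregnant mare serum gonadotropin, and right before hCG one ovary had received 2 µg of recombinant mouse Sema3E, a secreted ligand of the receptor Plexin-D1, in 10 µL of PBS with BSA, whereas the contralateral ovary had received 2 µg of immunoglobulin G (IgG) in the same vehicle. The 12 libraries formed 4 groups of 3, namely GC Sema3E, GC IgG, OST Sema3E and OST IgG, and each replicate came from a single ovary. Levels are given as TPM, transcript abundances which are scaled to gene length and to the library's total, so sequencing depths are unknown. In bulk tissue, fewer cells of a type and less RNA per cell cannot be told apart.

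The 4 parents are housekeeping genes. Rpl29 and Rpl3 encode proteins of the large ribosomal subunit, and Rpl3 lies close to the site at which peptide bonds are made. Hspa8 encodes Hsc70, the constitutively made member of the HSP70 chaperones, which folds new proteins and strips clathrin from coated vesicles. Gnpda1 encodes glucosamine-6-phosphate deaminase, which converts glucosamine-6-phosphate into fructose-6-phosphate and ammonia. Ribosomal protein genes are known for having left many processed pseudogenes in mammalian genomes.

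How alike parent and pseudogene are can be read from their sequences, which were taken from the GENCODE M21 transcripts (GRCm38) by gene identifier. In the Rpl29 family, the stretch from base 288 to base 435 of the Rpl29 coding sequence is shown because it holds 2 of the 3 bases that set the pseudogenes apart, and these bases are in capitals.
Rpl29: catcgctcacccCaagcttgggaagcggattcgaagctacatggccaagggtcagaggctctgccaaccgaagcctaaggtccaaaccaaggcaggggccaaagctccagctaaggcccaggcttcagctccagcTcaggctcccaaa
Gm13841: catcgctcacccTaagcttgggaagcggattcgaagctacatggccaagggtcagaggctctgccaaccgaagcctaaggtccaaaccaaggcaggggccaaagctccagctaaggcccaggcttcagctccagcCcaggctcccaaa
Gm8210: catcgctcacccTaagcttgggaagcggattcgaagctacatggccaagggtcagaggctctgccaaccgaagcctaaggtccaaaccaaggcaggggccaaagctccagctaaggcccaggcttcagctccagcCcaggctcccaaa
Counted from 1 at the A of the parent's start codon, both pseudogenes carried C72A, C300T and T423C (the parent's base first) and no other difference over 483 aligned bases. Gm13841 and Gm8210 differed from each other at 0 of 483 bases. Rpl29 and these copies thus had 99.4% identity, and the longest run without a difference was 227 bases.

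In the Rpl3 family, bases 774 to 1053 of the coding sequence are shown because they hold 4 positions at which a copy differs, again in capitals.
Rpl3: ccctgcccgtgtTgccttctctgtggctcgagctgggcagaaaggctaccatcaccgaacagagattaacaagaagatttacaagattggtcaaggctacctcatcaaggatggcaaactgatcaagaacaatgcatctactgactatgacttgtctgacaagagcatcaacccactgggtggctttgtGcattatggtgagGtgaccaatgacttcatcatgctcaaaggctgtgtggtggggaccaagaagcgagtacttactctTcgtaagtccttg
Rpl3-ps1: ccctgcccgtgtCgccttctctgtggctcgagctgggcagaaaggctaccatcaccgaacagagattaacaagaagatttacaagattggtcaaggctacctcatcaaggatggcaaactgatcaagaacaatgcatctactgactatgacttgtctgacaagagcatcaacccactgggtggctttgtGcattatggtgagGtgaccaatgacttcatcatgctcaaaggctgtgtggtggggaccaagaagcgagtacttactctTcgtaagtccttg
Rpl3-ps2: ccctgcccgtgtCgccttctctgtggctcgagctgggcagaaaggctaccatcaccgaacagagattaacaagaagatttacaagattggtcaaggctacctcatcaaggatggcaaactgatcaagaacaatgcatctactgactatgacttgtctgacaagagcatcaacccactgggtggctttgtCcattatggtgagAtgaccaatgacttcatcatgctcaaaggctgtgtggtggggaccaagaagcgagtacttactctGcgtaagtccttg
Rpl3-ps1 had 2 differences from Rpl3 over 1209 aligned bases, C57A and T786C, with a run of 728 bases free of any. Rpl3-ps2 had 10 differences and 4 gap bases, shared T786C with Rpl3-ps1, and had G963C, G976A and T1041G within the stretch shown.

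In the Hspa8 family, bases 402 to 561 of the coding sequence are shown because 2 of the 5 differing bases of Gm15459, C414T and C549T, lie in them.
Hspa8: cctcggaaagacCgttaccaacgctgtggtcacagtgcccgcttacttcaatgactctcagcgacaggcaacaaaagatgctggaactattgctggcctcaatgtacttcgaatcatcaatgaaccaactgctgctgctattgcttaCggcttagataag
Gm15459: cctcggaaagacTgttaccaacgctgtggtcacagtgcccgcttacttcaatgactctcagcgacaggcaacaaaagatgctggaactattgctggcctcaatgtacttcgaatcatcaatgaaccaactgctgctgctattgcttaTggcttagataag
The other differences over 1941 aligned bases were G114A, G1222A and C1440T, and the longest run without one was 672 bases. Gm8615 aligned with 747 bases of the 870-base Gnpda1 coding sequence, from base 124 on, and differed at 7 of them (99.1% identity).

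Placed singly in the parent's codons, most differing bases left the parent's amino acid as it was. All 3 in each Rpl29 copy, both in Rpl3-ps1, all 7 in Gm8615 and 4 of the 5 in Gm15459 did so, against 6 of the 10 in Rpl3-ps2. The parent's reading frame was open over its whole length in Gm13841 and Gm8210 (160 codons), Rpl3-ps1 (403 codons) and Gm15459 (646 codons). In Rpl3-ps2 it ended after 52 codons, before the first of its differing bases, which lies in codon 81.

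**Figure D1:**
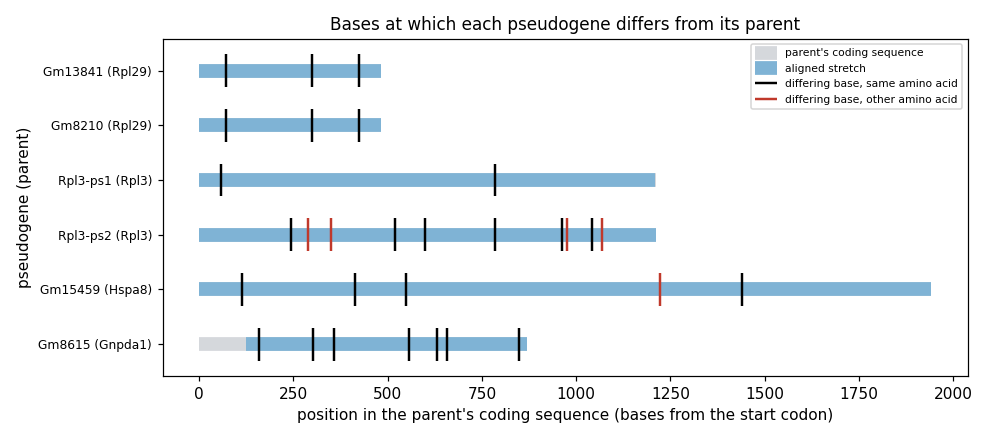
Bases at which each pseudogene differs from its parent's coding sequence. Each bar is the parent's coding sequence in bases from the start codon (horizontal axis), blue where the pseudogene aligns. Each tick is a differing base, black where it leaves the amino acid of the parent's codon the same and red where it does not. Rpl3-ps2 has 10 ticks, Gm8615 7, Gm15459 5, both Rpl29 copies 3 and Rpl3-ps1 2.

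Long stretches of each pseudogene could not be told from the parent. The share of 100-base windows of the pseudogene's transcript that occurred unchanged in an annotated transcript of its parent was 85.8% for Rpl3-ps1, 72.9% for Gm15459, 39.3% for Gm13841 and for Gm8210, 35.3% for Gm8615 and 29.0% for Rpl3-ps2. The read length, and how reads of near-identical genes were divided, are not given in the sources used here, so the level of each of the 10 genes taken alone is uncertain, and its part in the differences described was not tested.

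The genes lie far apart. By GENCODE M21, Rpl29 spans chr9:106429454-106431568 on the plus strand with 4 exons, Gm13841 is a single exon at chr5:115801677-115802159 on the minus strand, and Gm8210 is a single exon at chr1:43189156-43189638 on the plus strand, inside an intron of Fhl2, which runs on the opposite strand. Rpl3 spans chr15:80077791-80091868 on the minus strand with 10 exons, and its copies are single exons on the plus strand of the X chromosome, Rpl3-ps1 at chrX:13202571-13203780 and Rpl3-ps2 at chrX:74170653-74171866. Hspa8 spans chr9:40800984-40810087 on the plus strand with 9 exons and overlaps the small nucleolar RNA genes Snord14c, Snord14d and Snord14e, and Gm15459 is a single exon at chr5:5781615-5783555 on the minus strand, overlapping an exon of the long noncoding RNA gene Gm26825 on the opposite strand. Gnpda1 spans chr18:38327535-38339003 on the minus strand with 7 exons, and Gm8615 lies at chr5:149155108-149156209 on the minus strand, inside an intron of Hmgb1 and on its strand. Gm8615 also lies within Mm2pr, a long noncoding RNA gene on its strand, without touching its exons. No values were given for Gm26825 and Mm2pr, so their levels are unknown. The levels of the other host genes, Fhl2 and Hmgb1, overlapped between treatments in GCs. Fhl2 was at 0.391 to 0.535 TPM in GC Sema3E and 0.399 to 0.775 TPM in GC IgG libraries, and Hmgb1 at 10.2 to 11.8 TPM in GC Sema3E and 10.2 to 15.6 TPM in GC IgG libraries.

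In GCs, the TPM of each family were divided in another way after Sema3E than after IgG. The parent Rpl29 held nearly all of its family's TPM after Sema3E and a minor part after IgG, whereas its copies Gm13841 and Gm8210 were low after Sema3E and high after IgG. Gm15459 and Gm8615 were likewise low after Sema3E, and in the Rpl3 family the 2 pseudogenes were the higher ones after Sema3E. Groups did not overlap for 8 of the 10 genes, 4 higher (Rpl29, Rpl3-ps1, Rpl3-ps2 and Gnpda1) and 4 lower (Gm13841, Gm8210, Gm15459 and Gm8615) in Sema3E libraries, where over all 15128 genes tested 8.99% were higher and 2.05% lower without overlap. By limma with Benjamini-Hochberg adjustment, 0.0661% of all genes passed an adjusted p under 0.05 in GCs. The genes had been chosen on this comparison, so nothing is read from these counts.

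Rpl29 was at 764, 767 and 785 TPM in GC Sema3E libraries, against 65.6, 45.9 and 495 TPM in GC IgG libraries (replicates 1 to 3). The Sema3E libraries lay close together, and IgG replicate 3 stood between them and the other 2 IgG libraries. Gm13841 was at 30.8, 26.5 and 29.3 TPM in GC Sema3E libraries, against 896, 1077 and 1039 TPM in GC IgG libraries, so that its IgG mean was 34.8-fold the Sema3E mean. Gm8210 was at 1.24 and 0.983 TPM and listed at 0 in GC Sema3E libraries, against 975, 1369.6 and 418 TPM in GC IgG libraries. It was lowest among IgG libraries in replicate 3, the one with the most Rpl29. In Sema3E libraries Gm13841 was listed at a low level throughout and Gm8210 at no more than 1.24 TPM. The copies have the same sequence over all 483 bases, so a read within them cannot show from which copy it came. How TPM were split between these 2 genes is thus not a measured difference between them.

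Rpl3 differed little between treatments in GCs, with 239, 236 and 232 TPM in Sema3E and 237, 282 and 330.0 TPM in IgG libraries, and the groups overlapped. Rpl3-ps1 was at 755, 732 and 724 TPM in GC Sema3E libraries, against 160.0, 148 and 147 TPM in GC IgG libraries, a mean 4.86-fold higher after Sema3E. Per length, this pseudogene was thus listed above its parent in every GC Sema3E library and below it in every GC IgG library. Rpl3-ps2, the copy with the broken frame, was far lower, at 13.5, 16.8 and 16.9 TPM in GC Sema3E and 2.61, 0.933 and 2.18 TPM in GC IgG libraries. Both Rpl3 copies were higher after Sema3E, the opposite direction to the copies of the other 3 parents.

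Hspa8 was among the most highly expressed of the 10 genes and overlapped between treatments in GCs, at 2608, 2020.2 and 2669.6 TPM in Sema3E and 1828, 2210.3 and 1715 TPM in IgG libraries. Gm15459 was at 278, 199 and 279 TPM in GC Sema3E libraries, against 1787, 2327 and 4117 TPM in GC IgG libraries. The IgG libraries varied more than 2-fold among themselves and all lay above the Sema3E libraries. Gnpda1 was at 52.1, 46.5 and 53.8 TPM in GC Sema3E libraries, against 38.7, 38.1 and 38.4 TPM in GC IgG libraries, a mean 1.32-fold higher. Gm8615 was at 2.54, 2.90 and 4.51 TPM in GC Sema3E libraries, against 44.7, 62.9 and 51.2 TPM in GC IgG libraries. In IgG libraries the pseudogene was thus listed above Gnpda1 itself, and in Sema3E libraries far below it.

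**Figure D2:**
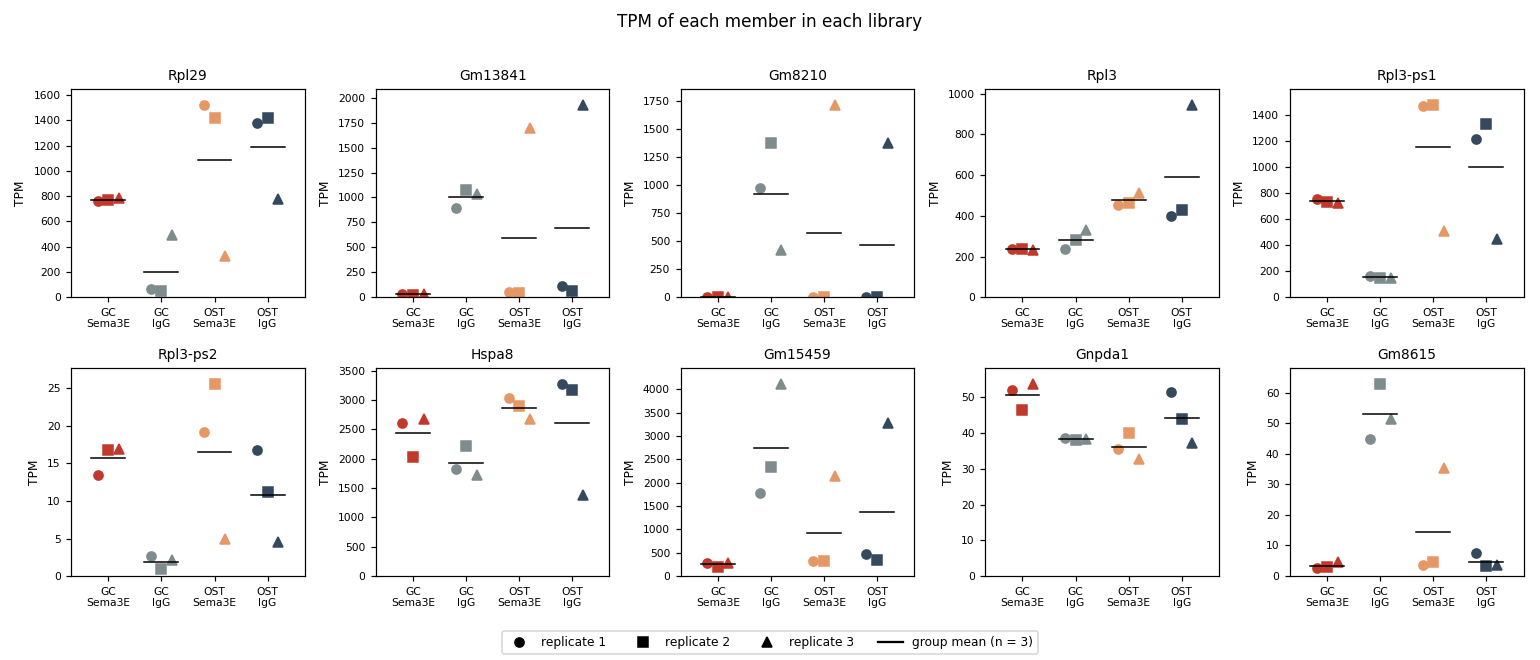
TPM of the 10 genes (vertical axes, linear and starting at 0) in the 12 libraries, by group; symbols mark replicates 1 to 3 and lines the group means. In GCs the Sema3E and IgG points are apart for 8 genes, and in OST replicate 3 of each treatment stands away from replicates 1 and 2 for most genes, with Gm13841 at 1698 TPM (Sema3E) and 1928 TPM (IgG).

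OST provided libraries on which the genes had not been chosen, and there a like division appeared in the Rpl29, Rpl3 and Hspa8 families without following the treatment. In replicate 3 of OST Sema3E and of OST IgG, Rpl29 and Rpl3-ps1 were low and Gm13841, Gm8210 and Gm15459 high against the other OST libraries. These 3 families were thus divided much as in GC IgG libraries. Levels differed, with Rpl29 at 777 TPM in OST IgG replicate 3 and at most 495 TPM in GC IgG libraries. Replicates 1 and 2 of both treatments were close to the GC Sema3E libraries in how each family was divided. The Gnpda1 family departed in OST Sema3E replicate 3 only. Sema3E and IgG overlapped for all 10 genes. None of the 10 passed an adjusted p under 0.05 by limma with Benjamini-Hochberg adjustment, and none passed at an unadjusted p under 0.05. Over all 16273 genes tested in OST, 0.0% passed the adjusted and 14.9% the unadjusted threshold, and 3.67% were higher and 29.9% lower in Sema3E libraries without overlap, against 0 of the 10 in either direction.

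Rpl29 was at 1523, 1421 and 324 TPM in OST Sema3E libraries and 1376, 1423 and 777 TPM in OST IgG libraries (log2 fold change -0.37, standard error 0.63, adjusted p = 0.742, limma with Benjamini-Hochberg adjustment). Replicate 3 was the lowest library of each treatment. Gm13841 was at 51.5, 41.0 and 1698 TPM in OST Sema3E libraries and 109.5, 57.9 and 1928 TPM in OST IgG libraries (log2 fold change -0.58, standard error 1.86, adjusted p = 0.867, limma with Benjamini-Hochberg adjustment). Gm8210 was listed at 0, 0 and 1713 TPM in OST Sema3E libraries and at 6.0, 2.27e-29 and 1378 TPM in OST IgG libraries (log2 fold change -0.83, standard error 3.80, adjusted p = 0.911, limma with Benjamini-Hochberg adjustment). Both copies were thus highest in replicate 3 of each treatment, the library in which their parent was lowest. The standard errors of the copies exceeded their fold changes more than 3 times.

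Rpl3 was at 453, 465 and 514 TPM in OST Sema3E libraries and 400.1, 429 and 945 TPM in OST IgG libraries. Its highest library was replicate 3 of each treatment, and in IgG that library was about double the others. Rpl3-ps1 was at 1473, 1478 and 511 TPM in OST Sema3E libraries and 1213, 1335 and 444 TPM in OST IgG libraries, and Rpl3-ps2 at 19.2, 25.6 and 4.92 TPM in OST Sema3E and 16.8, 11.2 and 4.53 TPM in OST IgG libraries. Both pseudogenes were lowest in replicate 3 of each treatment, and there Rpl3-ps1 was listed below Rpl3 per length. The log2 fold changes were -0.19 for Rpl3, 0.21 for Rpl3-ps1 and 0.47 for Rpl3-ps2, with standard errors of 0.33, 0.58 and 0.67 and adjusted p-values of 0.744, 0.846 and 0.695 (limma with Benjamini-Hochberg adjustment).

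Hspa8 was at 3026, 2904 and 2666 TPM in OST Sema3E libraries and 3276, 3163 and 1380.2 TPM in OST IgG libraries, and Gm15459 at 316, 312 and 2149 TPM in OST Sema3E and 482, 347 and 3283 TPM in OST IgG libraries. In replicate 3 the parent was lowest and the copy highest within each treatment, most of all in IgG, where Gm15459 had more TPM than Hspa8. Their log2 fold changes were 0.24 and -0.46, with standard errors of 0.35 and 1.10 and adjusted p-values of 0.700 and 0.819 (limma with Benjamini-Hochberg adjustment).

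The Gnpda1 family was the exception. Gm8615 was at 3.65, 4.74 and 35.3 TPM in OST Sema3E libraries and 7.40, 3.29 and 3.45 TPM in OST IgG libraries, so it was high in Sema3E replicate 3 and not in IgG replicate 3. Gnpda1 was at 35.7, 39.9 and 32.6 TPM in OST Sema3E libraries and 51.4, 43.9 and 37.2 TPM in OST IgG libraries. Their log2 fold changes were 0.86 for Gm8615 and -0.28 for Gnpda1, with standard errors of 0.80 and 0.15 and adjusted p-values of 0.548 and 0.374 (limma with Benjamini-Hochberg adjustment).

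**Figure D3:**
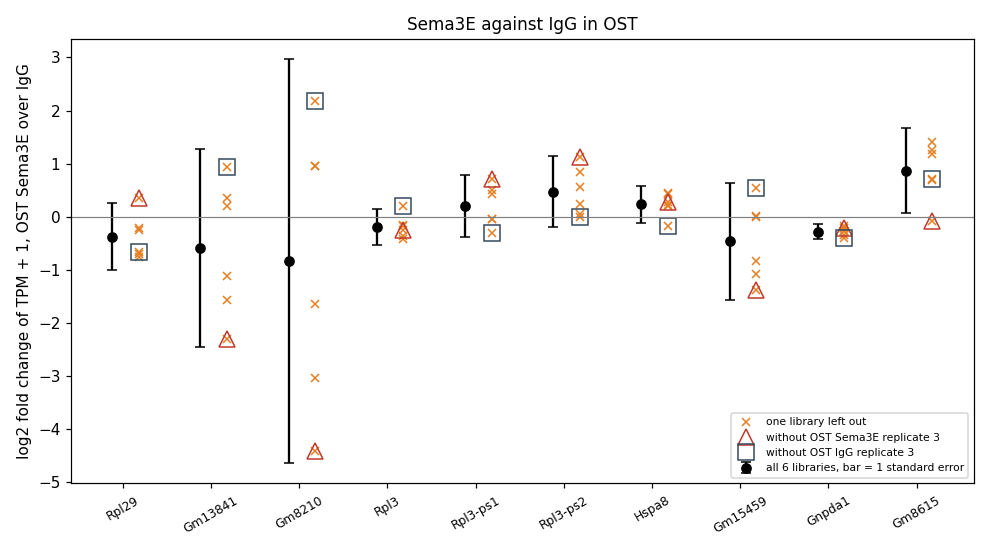
Log2 fold change of TPM + 1 in OST, Sema3E over IgG, for the 10 genes. Black points are fits on all 6 libraries with 1 standard error, crosses are fits with 1 library left out, and the triangle and square mark the fits without replicate 3 of Sema3E and of IgG; for Gm13841 these lie at -2.31 and 0.94, on either side of 0.

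For 8 of the 10 genes, leaving out 1 library could turn the sign of the OST fold change, and for Rpl3-ps2 (0.00 to 1.13) and Gnpda1 (-0.39 to -0.16) it did not. Without OST Sema3E replicate 3, the log2 fold change was -2.31 for Gm13841, -4.41 for Gm8210 and -1.38 for Gm15459, and without OST IgG replicate 3 it was 0.94, 2.18 and 0.54. Rpl29 turned to 0.36 without OST Sema3E replicate 3, and Rpl3, Rpl3-ps1 and Hspa8 turned to 0.20, -0.30 and -0.17 without OST IgG replicate 3. For Gm8615 it was -0.07 without OST Sema3E replicate 3. In none of these fits did any of the 10 genes pass an adjusted p under 0.05 by limma with Benjamini-Hochberg adjustment.

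The share of a family's TPM that was assigned to its pseudogenes summarises the division. In the Rpl29 family it was 4.03%, 3.46% and 3.60% in GC Sema3E libraries, against 96.6%, 98.2% and 74.7% in GC IgG libraries. In OST it was 3.27%, 2.80% and 91.3% in Sema3E and 7.74%, 3.91% and 81.0% in IgG libraries. Each library thus lay at 7.74% or below, or at 74.7% or above. With each TPM first multiplied by the gene's exon length, GC IgG replicate 3 was at 55.8% and OST IgG replicate 3 at 64.6%, nearer the middle. In the Hspa8 family the share of TPM was 9.64%, 8.98% and 9.45% in GC Sema3E and 49.4%, 51.3% and 70.6% in GC IgG libraries, and 9.46%, 9.69% and 44.6% in OST Sema3E and 12.8%, 9.90% and 70.4% in OST IgG libraries.

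The Rpl3 family ran the other way, with pseudogenes at 76.3%, 76.0% and 76.2% in GC Sema3E libraries, against 40.7%, 34.6% and 31.1% in GC IgG libraries. In OST its share was 76.7%, 76.4% and 50.1% in Sema3E and 75.5%, 75.8% and 32.2% in IgG libraries. Across the 7 libraries other than GC IgG and the replicates 3 of OST, the share stayed within 75.5% to 76.7%, in both tissues and under both treatments. In the Gnpda1 family the share was 4.64%, 5.88% and 7.73% in GC Sema3E and 53.6%, 62.3% and 57.1% in GC IgG libraries, and 9.28%, 10.6% and 51.9% in OST Sema3E and 12.6%, 6.97% and 8.49% in OST IgG libraries.

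**Figure D4:**
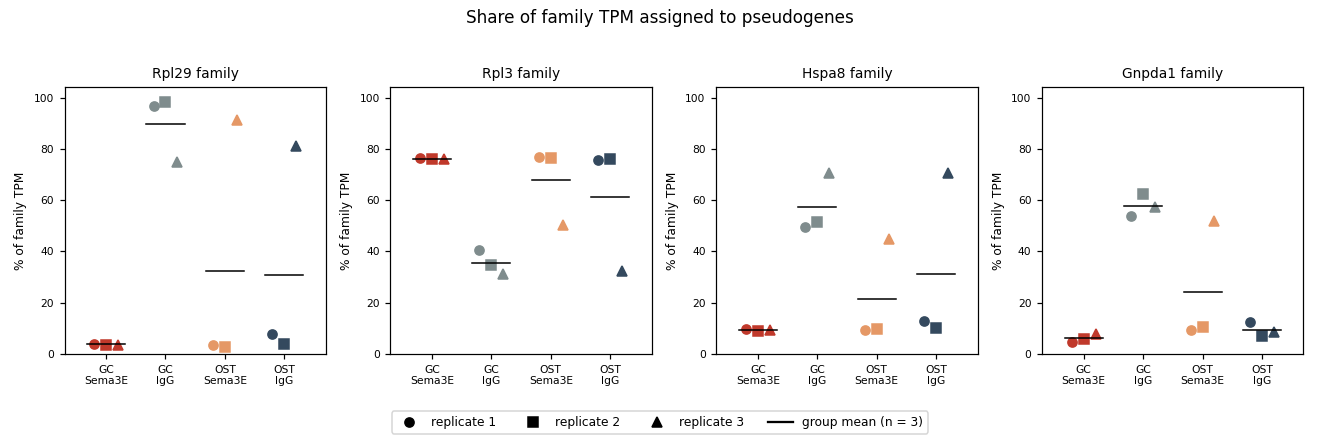
Percent of each family's summed TPM (vertical axis) that was assigned to its pseudogenes, per library, with group means as lines. In GCs Sema3E and IgG libraries are apart in all 4 families, and in OST replicate 3 of both treatments departs from replicates 1 and 2 except in the Gnpda1 family, where IgG replicate 3 is at 8.49%.

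Summing over a family removes the division between its members but not the difference between treatments in GCs. The Rpl29 family summed to 796, 794 and 815 TPM in GC Sema3E and 1937, 2492 and 1952 TPM in GC IgG libraries, a ratio of means of 0.377 (Sema3E over IgG). The Hspa8 family summed to 2886, 2219.6 and 2948 TPM in GC Sema3E and 3616, 4537 and 5832 TPM in GC IgG libraries (ratio 0.576), and the Gnpda1 family to 54.7, 49.4 and 58.4 TPM in GC Sema3E and 83.4, 101 and 89.6 TPM in GC IgG libraries (ratio 0.593). The Rpl3 family was higher after Sema3E, at 1007, 984 and 972 TPM in GC Sema3E and 399.9, 432 and 479 TPM in GC IgG libraries (ratio 2.26). Each sum was thus larger in the treatment in which the pseudogenes held more of it.

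TPM are divided by gene length, and the annotated exons of a parent cover more bases than its copies, for example 1126 for Rpl29 against 483 for Gm13841 and 4311 for Gnpda1 against 1102 for Gm8615. Multiplying each TPM by this length, which brings it closer to a number of reads, gave smaller differences in GCs. The Sema3E over IgG ratio became 0.752 for the Rpl29 family, 1.503 for the Rpl3 family, 0.792 for the Hspa8 family and 0.973 for the Gnpda1 family. On this scale the Gnpda1 family overlapped between treatments, with 89.4 to 98.7 (scaled as TPM are) in Sema3E and 90.9 to 101 in IgG libraries, and the other 3 families did not. With the length of 1 transcript per gene in place of all exons, a scale chosen after the values were seen, the log2 ratio was -0.89 for the Rpl29 family and -0.11 for the Gnpda1 family. On that scale it was 1.11 for the Rpl3 family and -0.65 for the Hspa8 family, nearer to the 1.18 and -0.80 of TPM. How far the differences of these families shrank thus depended on the length used.

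In OST all 4 family sums overlapped between treatments. The Rpl29 family summed to 1575, 1462 and 3736 TPM in Sema3E and 1492, 1480.5 and 4083 TPM in IgG libraries, and its ratio of means was 0.960. Leaving out 1 library moved the log2 ratio of this family, -0.06, to -0.63 (without OST Sema3E replicate 3) and 0.60 (without OST IgG replicate 3). The Rpl3 family summed to 1945, 1969 and 1029.8 TPM in Sema3E and 1630.1, 1775 and 1394 TPM in IgG libraries (ratio 1.03). Replicate 3 was the highest library of the Rpl29 family and the lowest of the Rpl3 family in each treatment. The ratios were 0.953 for the Hspa8 family, with sums of 3216 to 4816 TPM in Sema3E and 3510.1 to 4663 TPM in IgG libraries, and 1.04 for the Gnpda1 family, with sums of 39.4 to 67.9 TPM in Sema3E and 40.7 to 58.8 TPM in IgG libraries.

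**Figure D5:**
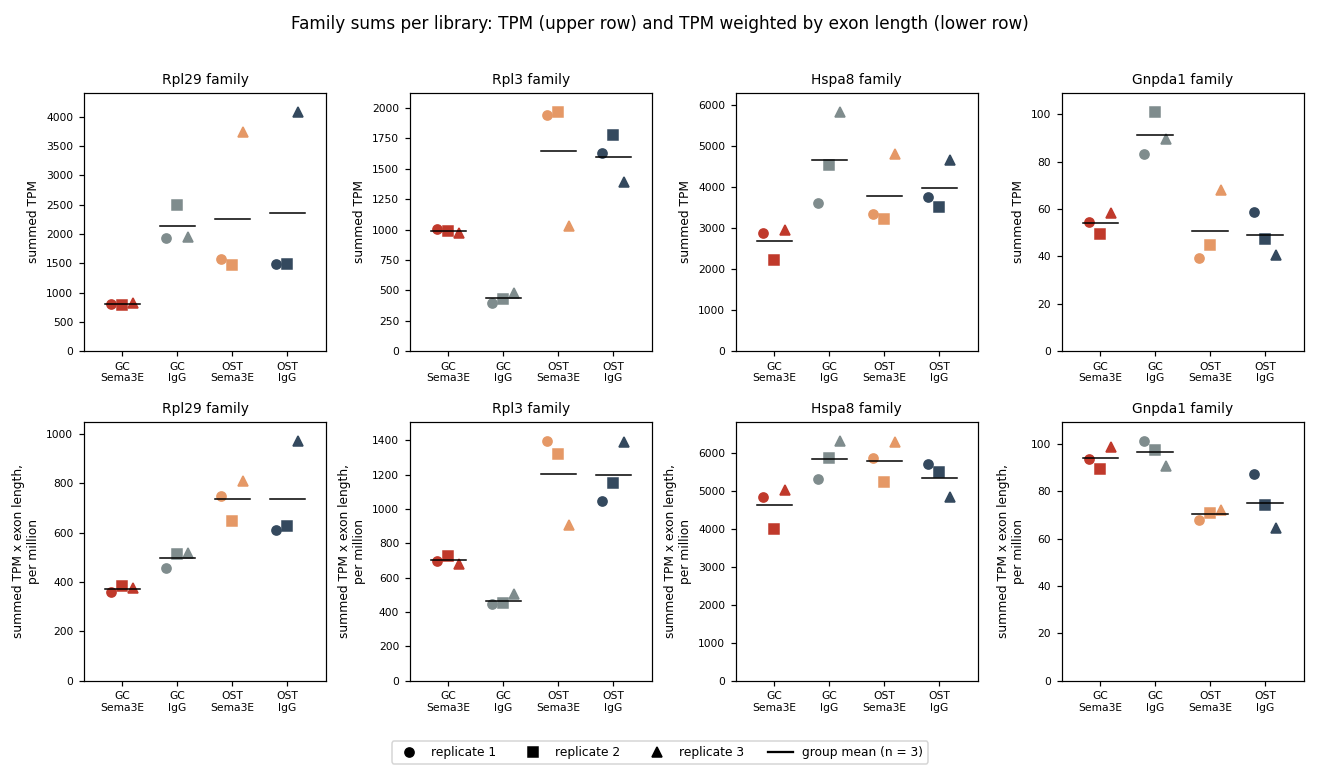
Sum over each family per library, as TPM (upper row) and as TPM times exon length, scaled like TPM (lower row); lines are group means of 3 libraries. In GCs the groups are apart in all 4 families as TPM, and the Gnpda1 groups overlap once length is taken into account, at 89.4 to 98.7 (Sema3E) and 90.9 to 101 (IgG).

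Across the 4 groups, Rpl29, Rpl3, Rpl3-ps1, Rpl3-ps2 and Hspa8 had their highest means in OST. Rpl29 averaged 772 ± 11.7 TPM in GC Sema3E, 202 ± 254 TPM in GC IgG, 1089.7 ± 665 TPM in OST Sema3E and 1192 ± 360.0 TPM in OST IgG libraries (SD, n = 3 each). Ordered by mean, GC Sema3E and GC IgG were apart and the other neighbours overlapped. Rpl3 averaged 235 ± 3.61 TPM in GC Sema3E, 283 ± 46.4 TPM in GC IgG, 477 ± 32.5 TPM in OST Sema3E and 591 ± 307 TPM in OST IgG libraries (SD, n = 3 each), with no overlap between tissues and overlap within each. Gm13841 and Gm15459 had their highest means in GC IgG and their lowest in GC Sema3E libraries, and only GC Sema3E was apart from its neighbour in that order.

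Other annotated copies of the 4 parents were sought as genes with at least 90% identity over 80% of the parent's coding sequence. With the parents counted, there were 60 such genes for Rpl29, 22 for Rpl3, 9 for Hspa8 and 2 for Gnpda1, of which the file held 12, 5, 4 and 2. Gm6344, a pseudogene on chromosome 13 with 99.4% identity to Rpl29, singled out after its values were seen, was at 135 TPM in OST Sema3E replicate 3 and 357 TPM in OST IgG replicate 3, against at most 21.6 TPM in any other library. Gm8355, an Hspa8 copy on chromosome 10 with 98.7% identity, also chosen after its values were seen, was at 7.02 to 11.5 TPM in the 12 libraries and did not share the pattern of Gm15459. With all these copies added to the sums, the GC ratios were 0.379 for the Rpl29 family, 2.26 for the Rpl3 family and 0.577 for the Hspa8 family.

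The genes whose log2(TPM + 1) ran most like each of the 10 over the 12 libraries were sought among all genes above 1 TPM in at least 1 library. For both Rpl29 copies it was the pseudogene Gm11868 (Pearson r = 0.96 with Gm13841 and 0.97 with Gm8210), at 0.155 to 0.640 TPM in GC Sema3E, 16.7 to 35.8 TPM in GC IgG, and 37.7 and 15.2 TPM in replicate 3 of OST Sema3E and OST IgG. For both Rpl3 copies it was the long noncoding RNA gene Gm49708 (r = 0.95 and 0.96), which was at 26.6 to 28.1 TPM in GC Sema3E and 3.45 to 3.86 TPM in GC IgG libraries and was also the least like Gm8210 and Gm15459 (r = -0.91 for each). Gm15459 ran most like Gm2427, an unprocessed pseudogene (r = 0.95), and Gm8615 most like Gm7049, a processed pseudogene (r = 0.94) at 117 TPM in OST Sema3E replicate 3 and 5.18 TPM in OST IgG replicate 3.

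Of the parents, Rpl29 ran most like Uimc1, which encodes a protein of the DNA damage response (r = 0.99), at 11.8 to 12.1 TPM in GC Sema3E and 3.08, 2.72 and 9.24 TPM in GC IgG libraries. In OST Uimc1 was at 20.5, 20.8 and 6.67 TPM in Sema3E and 16.1, 16.9 and 13.3 TPM in IgG libraries, so that replicate 3 was again the lowest of each treatment. Rpl3 ran most like Glod4 (r = 0.99), Hspa8 most like Ssbp2 (r = 0.94) and Gnpda1 most like Mast4 (r = 0.88). The lowest correlations were with Ear6 for Rpl29 (-0.93), Gal for Gm13841 (-0.89), Ptgs1 for Rpl3 (-0.96), Nxpe3 for Rpl3-ps1 (-0.89), Gcnt3 for Rpl3-ps2 (-0.96), Cth for Hspa8 (-0.88), Gm10244 for Gnpda1 (-0.86) and C920006O11Rik for Gm8615 (-0.92). These are descriptions over 12 libraries that share their normalization, and each gene is the extreme of all those compared.

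The pathways of the parents were counted in OST beside all genes, of which 0.0% passed the adjusted and 14.9% the unadjusted threshold and 3.67% were higher and 29.9% lower without overlap. Of 76 other cytosolic ribosomal protein genes, Rpl29 and Rpl3 left out, 0 passed in OST at an adjusted p under 0.05 (limma with Benjamini-Hochberg adjustment). At an unadjusted p under 0.05 in limma 0 passed, and 0 were higher or lower without overlap. Their median log2 fold change was 0.00, against -0.18 over all genes. The smallest p-values were those of Rpl41, Rpl38 and Rpl21, with log2 fold changes of 0.35, 0.43 and -1.37 (standard errors 0.19, 0.26 and 0.99). Of 26 other HSP70 chaperones, their co-chaperones and partners, 0 passed the adjusted threshold in OST and 1 was lower at the unadjusted one, Hspa4 (-0.28, standard error 0.12), with 4 lower without overlap and a median of -0.08, and Hspa1l and Hsp90aa1 followed at -0.33 and -0.19. Of 15 genes of amino sugar metabolism, 0 passed the adjusted threshold and 1 was lower at the unadjusted one, Gfpt1 (-0.37, standard error 0.12), which makes glucosamine-6-phosphate, with 4 lower without overlap and a median of -0.12, and Nanp and Pgm3 followed at -0.35 and -0.20.

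Of 293 other genes with names ending in -ps tested in OST, 0 passed an adjusted p under 0.05 in limma with Benjamini-Hochberg adjustment and 13 were higher and 13 lower before adjustment (p under 0.05), or 8.87% against 14.9% of all genes, with a median log2 fold change of -0.02. Of 1206 others with the biotype processed pseudogene, 0 passed the adjusted threshold and 68 were higher and 69 lower at the unadjusted one (11.4%), with a median of -0.03. Those with the smallest p were Gm17971 (-1.46, standard error 0.15), Gm10171 (1.64, standard error 0.19) and Gm36501 (1.09, standard error 0.18) by biotype, and Rps12-ps4 (1.74, standard error 0.39), Mif-ps6 (-1.30, standard error 0.33) and Rps19-ps4 (0.88, standard error 0.22) by name. In GCs, 1 of 1170 others by biotype was higher and 1 lower at an adjusted p under 0.05 (limma with Benjamini-Hochberg adjustment), and 84 were higher and 32 lower before adjustment (p under 0.05), or 9.92% against 5.11% of all genes, with a median of 0.09, against 0.06 over all genes.

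The 6 pseudogenes together made up 0.0978% to 0.108% of a library's TPM in GC Sema3E and 0.387% to 0.577% in GC IgG libraries, and 0.186%, 0.186% and 0.611% in OST Sema3E and 0.184%, 0.175% and 0.704% in OST IgG libraries. All other processed pseudogenes made up 5.07% to 5.51% in GC Sema3E and 4.77% to 5.88% in GC IgG libraries, which overlapped, and 7.82% to 7.98% in OST Sema3E and 6.80% to 9.23% in OST IgG libraries.

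The libraries differed in other ways as well. On the first principal component GC IgG replicate 1 was at 61.0, against -29.8 to 4.33 for the other GC libraries, and OST IgG replicate 3 at 89.9, against -27.5 to -9.68 for the other OST libraries. OST Sema3E replicate 3, at -27.5, did not stand apart there although it shared the departure of OST IgG replicate 3 in the Rpl29, Rpl3 and Hspa8 families, though not in the Gnpda1 family. The 7 theca and stroma markers summed to 31.7 to 65.5 TPM in GC Sema3E, 52.5 to 95.3 TPM in GC IgG, 1124 to 1368 TPM in OST Sema3E and 1070.5 to 1556 TPM in OST IgG libraries. The 8 granulosa cell markers summed to 9546 to 10114 TPM in GC Sema3E and 6170.0 to 13167 TPM in GC IgG libraries. In OST they summed to 5816 to 7729 TPM in Sema3E and 7655, 7606 and 13498 TPM in IgG libraries, so these markers were high in OST as well. OST IgG replicate 3, the highest there, had the lowest smooth muscle marker sum in OST, 375 TPM, against 600 to 835 TPM. OST Sema3E replicate 3 had the lowest granulosa cell marker sum in OST, 5816 TPM. The 6 leukocyte markers reached 1830.4 TPM in GC IgG replicate 1, against 123 to 426 TPM in the other GC libraries, and no marker was at 0 throughout a group. Leukocyte markers did not overlap between treatments in OST, at 90.2 to 129 TPM in Sema3E and 60.1 to 84.2 TPM in IgG libraries. Sema3E and IgG did not overlap in GCs for the 6 oocyte markers, which summed to 286 to 309.97 TPM in GC Sema3E and 137 to 238 TPM in GC IgG libraries, nor for the 4 smooth muscle markers, at 10.4 to 16.01 TPM in GC Sema3E and 16.06 to 24.0 TPM in GC IgG libraries. In OST the oocyte markers summed to 229 to 371 TPM in Sema3E and 344, 390.4 and 1099.99 TPM in IgG libraries, replicate 3 being the highest. The 5 erythroid markers summed to 66475 to 157628 TPM in GC Sema3E and 45460.4 to 196498 TPM in GC IgG libraries, against 2612 to 6369 TPM in OST libraries. Their part in the division of the 4 families was not tested.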

How the data were processed

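RNA-seq had been performed on 12 libraries. The authors describe aligning reads to GRCm38 with HISAT2 (version 2.0.5) and using featureCounts (version 1.5.0-p3) for gene counts. They name edgeR (version 1.3.3, as the submitters' processing notes give it) as the source of the deposited TPM. They kept genes over 1 TPM in at least 1 replicate. Coordinates in the deposited file differed from those of GRCm38, so GENCODE M21 gave positions, transcripts and exon lengths, matched by gene identifier (99.8% of 23150 genes). The smallest deposited TPM other than 0 was 8.44e-46. Counts of whole reads do not give TPM this small, so how the deposited values were made is uncertain. No counting error can be given, since TPM hold no depth.

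The genes and lists were chosen with earlier results of these data known. Sema3E and IgG were compared within each tissue with limma (version 3.58.1, R 4.3.3) on log2(TPM + 1) with trend and robust estimation, over genes above 1 TPM in at least 1 library of the tissue, and p-values were two-sided and adjusted by the Benjamini-Hochberg method. All 10 genes passed this filter in both tissues, Gm8210 in OST through 3 of 6 libraries. Such fold changes are too small for low genes. Family sums and shares were described without a test. As planned for a file of TPM, edgeR's and DESeq2's count tests were not run. Named genes were the 10, the most and the least correlated gene of each, up to 3 genes with the smallest p of each list, and genes singled out as stated. Alignments were made with Biopython (version 1.88), blastn (version 2.17.0) was used to find near-identical copies, and tables were handled with pandas (version 2.3.3). The limma procedure was tested on simulated data. Alternatives were another pseudocount (0.1), no filter, scaling by median ratios, 1 fit over all 12 libraries, no robust estimation, a replicate block and leaving out each library. Sums over all copies and lengths of 1 transcript per gene were chosen after seeing the data.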

Additional observations from a re-analysis of the deposited data

How the results depend on the processing

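In OST, limma (Benjamini-Hochberg) called 0 of the 10 genes at an adjusted p under 0.05 in any of the alternatives run, and over all genes 0 passed except 11 without OST IgG replicate 3. At an unadjusted p under 0.05, 2425 genes passed in OST, 1554 after scaling by median ratios and 952 to 3107 with 1 library left out, and of the 10 genes 0 or 1 with 1 library left out (Gnpda1, without OST IgG replicate 3). Leaving out 1 library gave log2 fold changes in OST of -0.76 to 0.36 for Rpl29, -2.31 to 0.94 for Gm13841, -4.41 to 2.18 for Gm8210, -0.42 to 0.20 for Rpl3, -0.30 to 0.72 for Rpl3-ps1, 0.00 to 1.13 for Rpl3-ps2, -0.17 to 0.45 for Hspa8, -1.38 to 0.54 for Gm15459, -0.39 to -0.16 for Gnpda1 and -0.072 to 1.41 for Gm8615. Rpl3 was at 0.036 after scaling by median ratios, against -0.19 in the main fit.

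In GCs the count past an adjusted p of 0.05 (limma, Benjamini-Hochberg) was 10, and it was 0 in a fit over all 12 libraries and 6 (without GC IgG replicate 1) to 25 (without GC IgG replicate 3) with 1 library left out. No source ties a replicate number to a mouse, and deviations of same-numbered libraries correlated at 0.34, 0.23 and -0.07 in GCs and -0.12, 0.06 and -0.18 in OST, so the numbers were not taken as pairs. With the replicate block, 245 genes passed in GCs and 0 in OST, where 1447 passed at an unadjusted p under 0.05, and of the 10 genes 1 did (Gm13841, adjusted p = 0.502, limma with Benjamini-Hochberg adjustment).

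As log2 ratios of family sums in GCs, multiplying by exon length moved the Rpl29 family to -0.41 (main value -1.41), the Rpl3 family to 0.59 (1.18), the Hspa8 family to -0.34 (-0.80) and the Gnpda1 family to -0.039 (-0.75), and lengths of 1 transcript moved the Rpl29 and Gnpda1 families to -0.89 and -0.11. With lengths of 1 transcript the Rpl3 and Hspa8 families were at 1.11 and -0.65, nearer to their main values. Scaling by median ratios gave 1.09 for the Rpl3 family. With 1 library left out the Rpl29 family was at -1.47 to -1.28 in GCs and -0.63 to 0.60 in OST. Differences in pseudogene share in GCs (Sema3E minus IgG) became 37.5 points for the Rpl3, -33.8 for the Hspa8 and -24.3 for the Gnpda1 family with exon lengths, and -29.5 for the Gnpda1 family with lengths of 1 transcript (main values 40.7, -47.7 and -51.6). With lengths of 1 transcript these differences were 41.1 points for the Rpl3 and -44.4 for the Hspa8 family. With 1 library left out they were -93.7 to -81.9 for the Rpl29, 38.5 to 43.3 for the Rpl3 and -51.6 to -41.0 for the Hspa8 family in GCs, and 0.60 to 21.9 for the Gnpda1 family in OST. The median share of windows found in the parent was 39.3% at 100 bases, 65.4% at 50 bases and 23.4% at 150 bases. DESeq2 was not run, since the file holds TPM. With 3 libraries a group and unknown depth, small differences in OST were not detectable. Large ones could be missed as well for Gm13841, Gm8210 and Gm15459, whose standard errors were 1.86, 3.80 and 1.10 log2 units.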
